A study of Homo sapiens with 6 samples.

Results

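Loci of open chromatin were compared between H1 human pluripotent stem cells carrying the first of 2 hairpins against HNRNPU, called shHNRNPU #1, and the same cells carrying a control hairpin against luciferase, called shLUC. Each group had 2 ATAC-seq libraries, called repeats 1 and 2. Summits of these 4 libraries were pooled, the summit with the highest score percentile within its own library was taken first, and every summit within 250 bp of it was absorbed. The step was repeated until no summit was left, which gave 109314 loci from 246138 summits, out of 356720 summits in all 6 libraries of the series. Loci with a summit no more than 250 bp from the centre in both shLUC libraries and in neither shHNRNPU #1 library are called lost, and those of the opposite kind gained. They came to 4309 lost loci (3.94% of all loci) and 4364 gained loci (3.99%).

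H1 is an established human embryonic stem cell line, and here the cells grew without feeders, on Matrigel in mTeSR1 medium. Hairpins were brought in by lentivirus and carrier cells were selected with puromycin, which holds for the control cells too. The labels do not say whether repeats came from separate cultures, so p-values measure only the spread between these libraries. Summit lists hold no expression, so the depletion of HNRNPU itself was not measured by them, and the number of reads behind each library is unknown.

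ATAC-seq uses a transposase that cuts and tags DNA where chromatin is open, so that promoters, enhancers and other regulatory elements stand out as peaks. A summit is the single position of highest signal in a peak. HNRNPU, also known as SAF-A, is an abundant nuclear protein that binds RNA and scaffold-attached DNA and is counted among the components of the nuclear matrix. It is known for keeping the X-inactivation RNA XIST on its chromosome and for a part in the folding of active chromatin, and gene-rich and gene-poor chromatin are known to occupy different parts of the nucleus.

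The strongest lost and gained loci that fell into the promoter windows of RefSeq had a summit of the other group 251 to 852 bases away. Sequences of 6 of them are shown first because they hold the strongest calls at gene starts. Each run of 280 bases goes from 250 bases before a gene start to 30 bases after it, on the strand of the gene, in the GRCh38.p14 sequence of RefSeq, and the 21 capitals mark the summit with 10 bases on either side. The first 3 hold lost summits, at DIXDC1 (chr11:111927065-111927344, plus strand), at the upstream start of PLK4 (chr4:127880643-127880922, plus strand) and at ISCA2 (chr14:74493515-74493794, plus strand). The other 3 hold gained summits, at TSEN34 (chr19:54190481-54190760, plus strand), at the downstream start of PLK4 (chr4:127881381-127881660, plus strand) and at SLC12A9 (chr7:100852463-100852742, plus strand).
DIXDC1 lost: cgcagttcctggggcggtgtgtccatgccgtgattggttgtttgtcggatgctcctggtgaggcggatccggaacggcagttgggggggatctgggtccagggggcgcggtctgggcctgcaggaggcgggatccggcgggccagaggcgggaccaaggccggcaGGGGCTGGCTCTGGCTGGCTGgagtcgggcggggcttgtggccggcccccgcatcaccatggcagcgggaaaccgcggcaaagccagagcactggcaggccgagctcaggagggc
PLK4 lost: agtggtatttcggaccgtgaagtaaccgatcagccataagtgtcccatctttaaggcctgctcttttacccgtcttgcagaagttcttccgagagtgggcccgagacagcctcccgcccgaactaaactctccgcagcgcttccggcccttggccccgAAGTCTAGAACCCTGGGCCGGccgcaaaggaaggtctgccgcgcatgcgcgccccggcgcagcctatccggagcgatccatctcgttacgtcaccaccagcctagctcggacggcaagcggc
ISCA2 lost: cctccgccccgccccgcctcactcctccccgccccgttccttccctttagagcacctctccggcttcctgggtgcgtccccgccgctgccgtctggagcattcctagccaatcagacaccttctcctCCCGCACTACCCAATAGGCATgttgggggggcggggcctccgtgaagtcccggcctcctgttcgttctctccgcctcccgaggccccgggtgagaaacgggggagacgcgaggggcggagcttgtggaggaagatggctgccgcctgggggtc
TSEN34 gained: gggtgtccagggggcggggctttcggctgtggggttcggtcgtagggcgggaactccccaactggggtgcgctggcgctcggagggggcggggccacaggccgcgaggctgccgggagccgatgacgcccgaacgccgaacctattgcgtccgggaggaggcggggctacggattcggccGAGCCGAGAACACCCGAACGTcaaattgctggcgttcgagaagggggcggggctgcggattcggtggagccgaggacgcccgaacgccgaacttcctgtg
PLK4 gained: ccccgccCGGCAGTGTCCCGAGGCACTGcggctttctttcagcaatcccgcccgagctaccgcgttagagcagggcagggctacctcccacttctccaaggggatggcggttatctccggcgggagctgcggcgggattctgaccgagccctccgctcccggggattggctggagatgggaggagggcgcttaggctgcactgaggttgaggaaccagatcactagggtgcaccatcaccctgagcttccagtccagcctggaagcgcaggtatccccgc
SLC12A9 gained: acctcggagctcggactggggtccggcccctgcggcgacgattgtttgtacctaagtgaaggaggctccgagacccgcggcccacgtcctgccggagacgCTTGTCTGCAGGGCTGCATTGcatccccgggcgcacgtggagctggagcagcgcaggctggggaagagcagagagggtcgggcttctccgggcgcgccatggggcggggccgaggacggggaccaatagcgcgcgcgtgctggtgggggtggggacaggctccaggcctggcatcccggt

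PLK4 encodes the kinase that starts the duplication of centrioles, and both calls lay in its promoter region. The lost summit was 82 bases upstream of one annotated start, with scores of 53.2 in shLUC repeat 1 and 50.0 in shLUC repeat 2. The gained summit lay 587 bp further on, 233 bases upstream of another annotated start, with scores of 40.6 and 63.6 in shHNRNPU #1 repeats 1 and 2. The score is a q-value as −log10, given by the peak caller for each library alone. Both groups thus had summits in this promoter region, at different positions.

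The groups overlapped in the number of summits. The shHNRNPU #1 libraries had 59055 and 63519 summits and the shLUC libraries 62191 and 61373. The difference of means of -495 summits was smaller than the SD of either group, 3157 and 578 (exact permutation test, two-sided, 6 assignments, p = 1.00). This test could not reach 0.05 for any measure, since 0.333 is its smallest two-sided p for groups of 2. All 9 markers of pluripotent cells, POU5F1, SOX2 and NANOG among them, had a summit within 2000 bp of a gene end in all 4 libraries. The 3 neural, 3 endoderm and 3 mesoderm markers had one in every library too, the 3 trophoblast markers in 2 or 3 genes, and 2 or 3 of the 5 fibroblast markers did. An open gene end is not expression, and these marker counts do not tell the cell types apart.

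**Figure D1:**
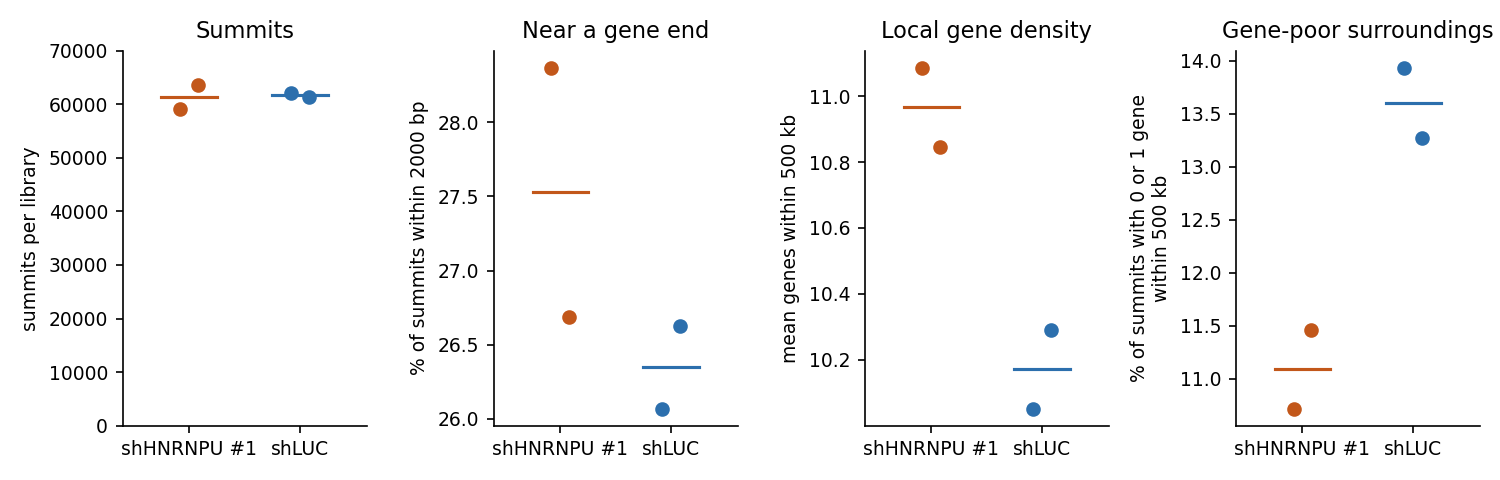
Values of the 2 shHNRNPU #1 and 2 shLUC libraries, with a point per library and a line at the group mean: the number of summits, the percentage of summits within 2000 bp of a protein-coding gene end, the mean number of protein-coding genes within 500 kb of a summit, and the percentage of summits with 0 or 1 such gene. Only the axis of the first panel starts at 0. The groups overlapped in the number of summits and did not overlap in the other 3 measures.

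Summits of the shHNRNPU #1 libraries lay in more gene-rich surroundings on average. Local gene density, which counts protein-coding genes with their midpoint up to 500 kb away, averaged 11.1 and 10.8 genes in shHNRNPU #1 repeats 1 and 2, and 10.1 and 10.3 genes in shLUC repeats 1 and 2. In this average both shHNRNPU #1 libraries lay above both shLUC libraries. The medians were 8 and 7 genes against 7 and 7, so the groups overlapped there. The means were 10.97 ± 0.169 (SD, n = 2) and 10.2 ± 0.170 (SD, n = 2), a difference of 0.794 genes, at the smallest p the design allows (two-sided exact permutation test, p = 0.333). Summits with 0 or 1 gene within 500 kb made up 10.7% and 11.5% of the shHNRNPU #1 libraries and 13.9% and 13.3% of the shLUC libraries. Summits more than 200 kb from any gene end made up 9.92% and 10.6% against 12.8% and 12.3%. Those within 2000 bp of a gene end made up 28.4% and 26.7% against 26.1% and 26.6%. The groups were close in this last share. Without shHNRNPU #1 repeat 1 the difference of means dropped from 1.18 to 0.338 percentage points.

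Loci of exactly 2 libraries were compared by pair of libraries. The 4 pairs made of 1 library from each group held 2525, 2379, 3016 and 2803 loci of their own, 10723 in all, which are called mixed loci below. Lost loci and gained loci were each more numerous than any single one of these pairs, though fewer together than the 4 pairs in all. Another 29995 loci (27.4%) were held by all 4 libraries. Lost and gained loci were weaker peaks than the loci of all 4 libraries. The median percentile of the lowest score at a locus was 26.0 for lost, 19.9 for gained and 19.03 for mixed loci. This lowest score was taken over 2 libraries there, and over 4 for loci of all 4 libraries, where the median was 59.6.

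**Figure D2:**
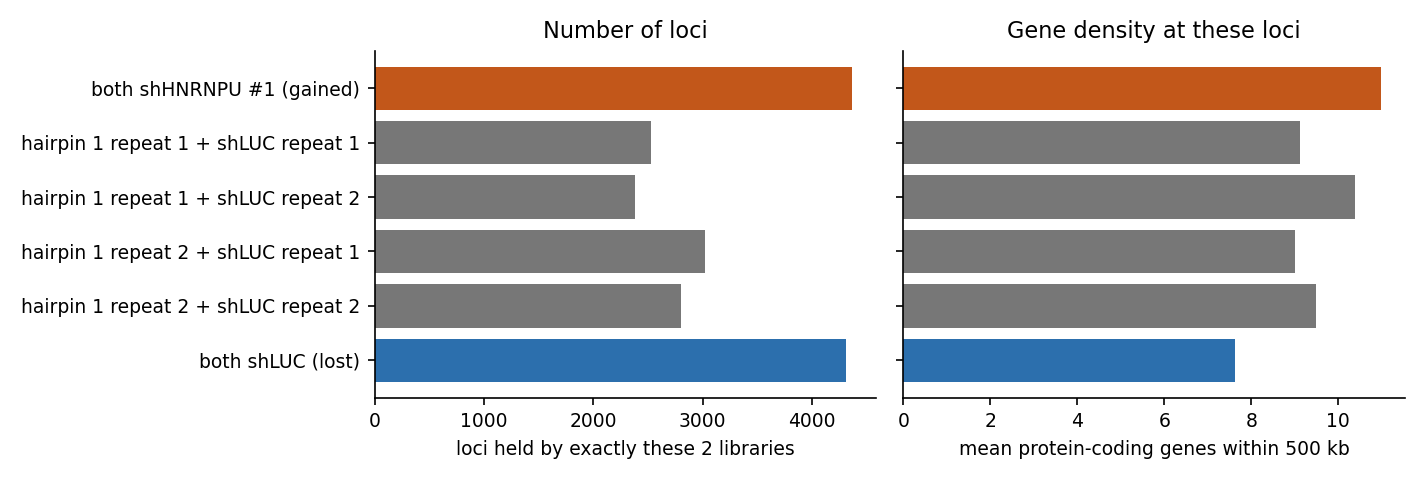
Loci held by exactly 2 of the 4 libraries, by pair of libraries, with hairpin 1 standing for shHNRNPU #1. The left bars give the number of loci and the right bars the mean number of protein-coding genes within 500 kb. The 4364 gained and 4309 lost loci outnumbered each mixed pair, and gained loci had the highest and lost loci the lowest mean density of the 6 pairs, 10.98 and 7.63 genes.

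Part of the calls had a summit of the other group close by. Of the lost loci, 1146 (26.6%) had a shHNRNPU #1 summit between 250 and 1000 bp away, and of the gained loci 1281 (29.4%) had a shLUC summit there. With the other group absent up to 1000 bp, 3163 lost loci (2.89% of all loci) and 3083 gained loci (2.82%) were left. At the edge of the rule, 323 lost and 398 gained loci had a summit of the other group no more than 50 bp beyond the 250 bp limit. Just inside the limit, 279 loci missed the lost call and 394 missed the gained call because of a summit in the last 50 bp. Lost and gained loci also lay side by side. There were 230 pairs of a lost and a gained locus within 1000 bp of each other, at a median distance of 409 bp. In 139 of these pairs (60.4%) the lost locus was within 2000 bp of a gene end, compared with 21.4% of all loci. All loci are not a like set, since a pair needs another locus close by.

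Lost loci lay in more gene-poor and gained loci in more gene-rich surroundings. Lost loci had 7.63 protein-coding genes within 500 kb on average (quartiles 2, 5 and 9) and gained loci 10.98 (quartiles 4, 7 and 15). Mixed loci lay between them with 9.47 genes, and loci of all 4 libraries had 11.97. With 0 or 1 gene within 500 kb were 20.96% of lost, 10.7% of gained and 14.1% of mixed loci. Among loci held by 1 library only, this share was 21.3% and 19.6% for shLUC repeats 1 and 2. It was 12.4% and 13.6% for shHNRNPU #1 repeats 1 and 2. Gene-poor surroundings were thus shared by loci of a single shLUC library and were not particular to lost loci. With 20 genes or more were 8.66% of lost, 16.4% of gained and 12.5% of mixed loci. The order of lost and gained loci was the same without any 1 library, where the gap in mean density was 1.5 to 4.17 genes. Compared with 3.35 over all libraries, the gap was 1.5 when shHNRNPU #1 repeat 1 was left out and 1.79 when its repeat 2 was. A locus then needed only 1 summit in the group with 1 library, so these calls are looser.

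The change along the scale of gene density was gradual. Among 6039 loci with no gene within 500 kb, 385 were lost (6.38%, 95% Wilson interval 5.79 to 7.02) and 157 gained (2.60%, 2.23 to 3.03). Among 15138 loci with 5 or 6 genes, 577 were lost and 575 gained, so the calls were balanced there. Among 6954 loci with 30 genes or more, 172 were lost (2.47%, 2.13 to 2.87) and 336 gained (4.83%, 4.35 to 5.36). The number of gained loci per lost locus thus went from 0.408 to 1.95. Intervals cover counting error only. Mixed loci changed little along the same scale, from 9.94% of loci with no gene to 8.93% of those with 30 or more, while loci of all 4 libraries went from 17.6% to 41.0%.

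**Figure D3:**
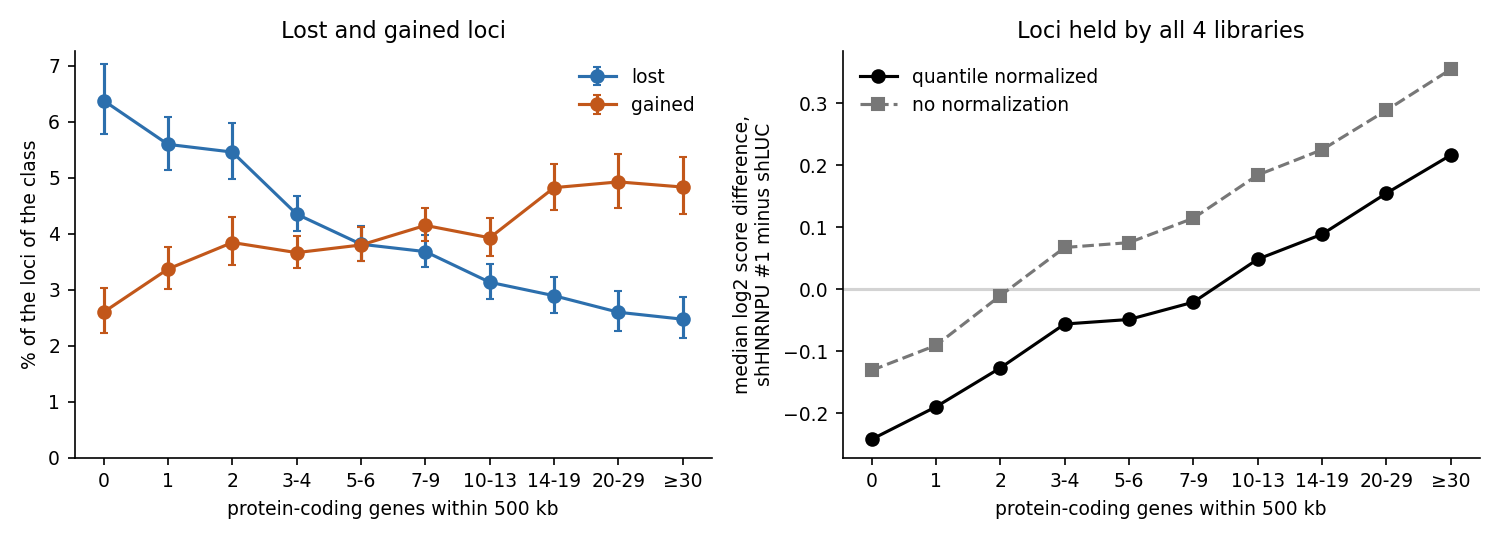
Left, the percentage of loci that were lost or gained in 10 classes of local gene density, with 95% Wilson intervals as bars. Right, the median log2 difference in score between shHNRNPU #1 and shLUC at the loci held by all 4 libraries, in the same classes, with the scores quantile normalized or left as deposited. Lost loci fell from 6.38% to 2.47% of a class and gained loci went from 2.60% to 4.83%, and the median score difference went from -0.24 to 0.22 with normalized scores and from -0.13 to 0.35 without.

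A like order by gene density was seen away from genes. More than 50 kb from any gene end, there were 0.407 gained loci per lost locus with no gene within 500 kb, 1.21 with 7 to 9 genes and 2.33 with 20 to 29 genes, the last from only 9 lost and 21 gained loci. With 30 genes or more there were 4 lost and 4 gained loci at this distance, too few to read. Within 2000 bp of a gene end there was no such order among the classes with fewer genes. The ratio there was 1.25 with 1 gene, 1.5 with 2 genes, 1.26 with 5 or 6 genes, 0.919 with 7 to 9 genes and 1.82 with 30 or more. By distance alone, loci more than 200 kb from a gene end had 859 lost and 406 gained calls, and those between 2000 and 10000 bp away had 475 lost and 747 gained calls. Leaving out calls with the other group within 1000 bp widened the scale, from 0.355 gained loci per lost locus with no gene to 2.67 with 30 or more.

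Gained loci were nearer to genes than lost loci. No more than 2000 bp from a gene end, of protein-coding genes only, lay 645 lost loci (15.0%, 95% Wilson interval 13.9 to 16.1) and 835 gained loci (19.1%, 18.0 to 20.3), beside 17.7% of mixed loci and 37.8% of loci of all 4 libraries. Where the other group had no summit within 1000 bp, these shares were 4.90% of 3163 lost and 11.03% of 3083 gained loci. The median distance to a gene end was 41788 bp for lost and 21442 bp for gained loci. Elsewhere inside a protein-coding gene were 37.7% of lost and 40.1% of gained loci, in a gene of another biotype only 12.7% and 12.4%, and in no gene 34.6% and 28.3%. The gap between gained and lost loci near gene ends turned from 4.17 to -3.34 percentage points without shHNRNPU #1 repeat 1 and to -0.608 without shHNRNPU #1 repeat 2, where a gained locus needed only 1 summit.

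Inside genes and away from their ends, the length of the gene separated the calls. In genes of up to 20 kb, 40 of 1754 loci were lost and 96 gained, 2.40 gained loci per lost locus. In genes of 100 to 200 kb the numbers were 343 and 409. In genes of more than 500 kb, 376 of 7589 loci were lost (4.95%) and 250 gained (3.29%), a ratio of 0.665. The part of gene density in this order was not tested.

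The most gene-dense chromosomes had more gained than lost loci. Chromosome 22 had 31 lost and 96 gained loci of 1748, chromosome 19 had 72 and 177 of 3509, and chromosome 17 had 93 and 212 of 4178. Chromosome 4, where loci had 5.31 genes within 500 kb on average compared with 30.4 on chromosome 19, had 321 lost and 173 gained loci of 6079. Chromosome 13 had 156 and 109 of 3178, and the X chromosome 132 and 103 of 2540. Gained loci outnumbered lost loci on 13 of the 24 chromosomes. The share of a library's summits lay on the same side for these chromosomes. Chromosome 19 held 4.06% and 4.02% of the summits of shHNRNPU #1 repeats 1 and 2 and 3.40% and 3.58% of those of shLUC repeats 1 and 2. Chromosome 4 held 4.77% and 5.06% against 5.70% and 5.49%. Shares of the groups did not overlap for 22 of 24 chromosomes (91.7%), with 10 higher and 12 lower in both shHNRNPU #1 libraries. Shares of 1 library sum to a whole, so the chromosomes are not independent, and the smallest adjusted p was 0.364 (exact permutation test, Benjamini-Hochberg over 24 chromosomes).

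**Figure D4:**
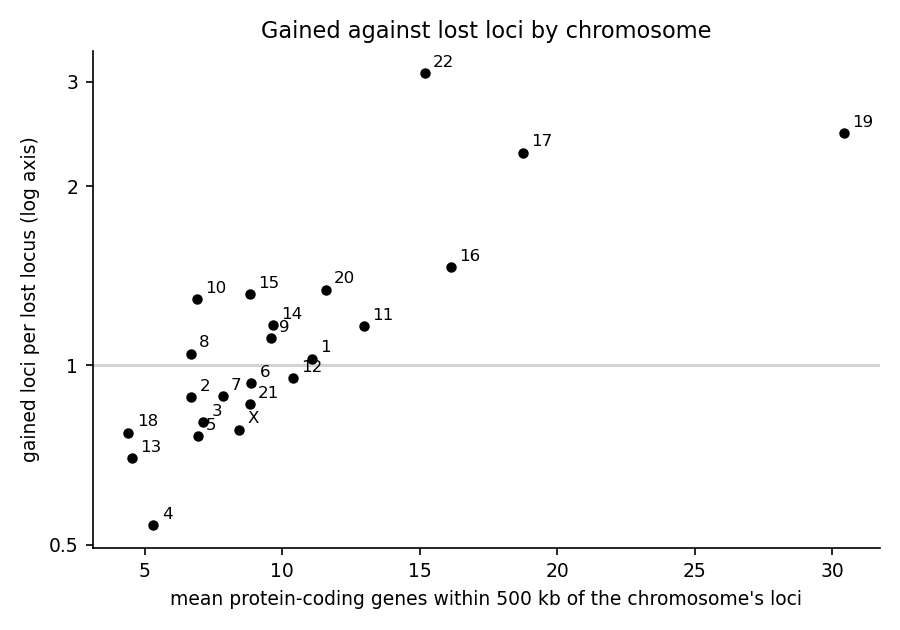
Gained loci per lost locus (log axis) against the mean number of protein-coding genes within 500 kb of a chromosome's loci, with a point per chromosome and the Y chromosome, which had 2 lost and 5 gained loci, left out. The grey line marks equal numbers. Chromosomes 17, 19 and 22 lie highest, at 2.28, 2.46 and 3.10, and chromosome 4 lowest, at 0.539.

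Within chromosomes, some regions held calls of 1 kind only. Of 2884 windows of 1 Mb with loci, 149 held at least 3 lost and no gained loci, with a median of 3 protein-coding genes, and 122 held at least 3 gained and no lost loci, with a median of 9 genes. The median over all windows was 4 genes. These windows were not selected by the naming rule and were chosen after their counts were seen. The window chr3:76000000-76999999, inside ROBO2, had 7 lost and no gained loci of 26, and 5 and 10 summits in shHNRNPU #1 repeats 1 and 2 against 17 and 16 in shLUC repeats 1 and 2. Windows with more genes also had 7 lost and no gained loci. These were chr3:101000000-101999999, with 10 genes and 40 loci, and chr15:65000000-65999999, with 17 genes and 59 loci. The window chr4:161000000-161999999, at FSTL5 and with 1 gene, had 6 lost and no gained loci of 20. On the other side, the window chr12:113000000-113999999, with DTX1, LHX5 and RBM19, had 10 gained and no lost loci of 71, and 48 and 51 summits against 39 and 41. In chr20:63000000-63999999, near the end of chromosome 20 and with 31 genes, 10 of 104 loci were gained and 1 was lost.

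The strongest lost locus with no shHNRNPU #1 summit within 1000 bp was in RIMS1, a scaffold protein of the presynaptic active zone, on chromosome 6 at position 72245750 and 157395 bp from a gene end. Its scores were 22.5 and 20.4 in shLUC repeats 1 and 2, and the nearest shHNRNPU #1 summit was 62719 bp away. A locus in OXR1, a gene of oxidation resistance, had scores of 29.8 and 18.4, with the nearest shHNRNPU #1 summit 37077 bp away. FUT9, which makes the Lewis X sugar of the cell surface, held one with scores of 21.02 and 17.8. NXPH2, a neurexin ligand, held one with scores of 40.4 and 16.1, whose nearest shHNRNPU #1 summit was 2033 bp away. The other 4 lay in PPRC1 beside the end of LDB1, in KIFC3, 28624 bp from the olfactory receptor gene OR5K4, and in a long non-coding RNA gene near PRIM2. Their lowest percentile was between 79.0 and 84.2.

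The strongest gained loci with no shLUC summit within 1000 bp were less strong, apart from those at HBP1 and BRD10. HBP1, a transcriptional repressor, held one 711 bp from a gene end, on chromosome 7 at position 107169714. Its scores were 54.2 and 36.9 in shHNRNPU #1 repeats 1 and 2. Its nearest shLUC summit was 1008 bp away, just beyond the 1000 bp limit. BRD10 held one 81 bp from its end, on chromosome 9 at position 6008401. It had scores of 39.1 and 34.8 and a shLUC summit 1359 bp away. The next was in TFPI, the inhibitor of tissue factor, with scores of 16.6 and 21.4 and no shLUC summit within 8772 bp. PLEKHG5 and LTBP4 held loci with scores of 15.98 and 13.96 and of 14.2 and 15.4. PHC2, a subunit of Polycomb repressive complex 1, held one with scores of 13.1 and 14.6. The other gained loci lay in non-coding RNA genes near REEP3 and RASEF. Of these 8 loci, the one near REEP3 had no protein-coding gene within 500 kb and the one in LTBP4 had 26.

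Without the distance condition the loci of highest percentile lay close to gene starts. The lost locus at DIXDC1, a positive regulator of WNT signalling, had scores of 53.2 and 54.7, and a shHNRNPU #1 summit lay 273 bp away. The gained locus at RBM15-AS1 and LOC124904276 had scores of 59.7 and 56.7 with a shLUC summit 302 bp away. MZF1, a zinc finger gene of chromosome 19, had both calls, a lost summit 9 bases downstream of its start with scores of 52.6 and 39.8 and a gained one 646 bp further into the gene with scores of 54.2 and 51.6. The lost summit at ISCA2, an iron-sulfur cluster assembly factor whose promoter is shared with the cholesterol carrier NPC2, had scores of 44.9 and 45.7 and a shHNRNPU #1 summit 259 bp away. The lost summit at GSK3B-DT had scores of 42.4 and 48.6. Gained summits at TSEN34, a subunit of the tRNA splicing endonuclease, had scores of 50.8 and 47.5, and a lost summit lay 852 bp away near the end of MBOAT7. At GSTA4, a glutathione transferase, the gained summit had scores of 37.9 and 41.6 and lay 390 bp from a lost one. The gained summits at SLC12A9 and TUBGCP2 had shLUC summits at 251 and 304 bp.

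Of the 35116 promoter windows of 300 bases searched, 224 held a lost and 252 a gained locus. Median GC content was 67.0% in windows with a lost locus, 68.5% with a gained one and 66.7% in 9805 windows with a locus of all 4 libraries, compared with 58.7% in all windows. The GC box GGGCGG, searched on both strands, was in 59.4% of windows with a lost and 66.7% of those with a gained locus, beside 76.7% of windows with a locus of all 4 libraries and 45.0% of all windows. The CCAAT box CCAAT was in 31.7%, 24.2%, 40.9% and 34.6% of these sets, in the same order. The ETS site CCGGAAG was in 9.38% and 7.14% compared with 10.3% of all windows and 22.2% of windows with a locus of all 4 libraries. The TATA box TATAAA was in 7.14% with a lost, 2.38% with a gained and 3.83% with a locus of all 4 libraries, and in 11.5% of all windows. All windows include those of other biotypes. The 22199 windows of protein-coding genes had a median GC content of 62.3%. They held a GC box in 56.3%, near the 59.4% with a lost locus, a CCAAT box in 34.7%, an ETS site in 12.8% and a TATA box in 9.47%. Windows with a mixed locus numbered 573 and had a median GC content of 65.7%. A GC box was in 65.4% of them, a CCAAT box in 25.3%, an ETS site in 12.2% and a TATA box in 4.01%. Among the windows shown above, both starts of PLK4 had a GC box, the upstream one an ETS site and the downstream one a CCAAT box.

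Gene classes held unequal numbers of the calls. For a list of genes, all loci inside the genes or within 2000 bp of them were counted. Of 26 lists, 18 held more gained than lost loci, 6 more lost than gained, and 2 equal numbers. Only 11 lists held more gained loci when shLUC repeat 1 was left out and 8 when its repeat 2 was, where a lost locus needed only 1 summit. Gained loci made up more than 10% of the loci at HOX clusters, protocadherins, endoderm, mesoderm and trophoblast genes and 4.29% at neuroectoderm genes, compared with 3.99% of all loci. Lost loci made up 15.3% of those at olfactory receptors and 5.94% at long genes of synapse and adhesion. Shares of summits at a list's genes did not overlap between groups for 17 of 26 lists (65.4%), 13 higher and 4 lower in both shHNRNPU #1 libraries. The share at all protein-coding genes was itself higher, with 6239 and 6126 summits per 10000 in shHNRNPU #1 repeats 1 and 2 and 5996 and 6056 in shLUC repeats 1 and 2.

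HOX genes, which set position along the body axis and are largely silent in pluripotent cells, held 9 gained and no lost loci of 85. Per 10000 summits of a library, 9.14 and 8.34 were at these genes in shHNRNPU #1 repeats 1 and 2 and 4.66 and 6.35 in shLUC repeats 1 and 2. Both shHNRNPU #1 values were above both shLUC values (two-sided exact permutation test, p = 0.333). A gained locus 227 bp from an end of HOXD10 and 872 bp from one of HOXD11 had scores of 7.89 and 14.1, with no shLUC summit within 5826 bp. Gained loci near the ends of HOXA3, HOXA5, HOXA11, HOXB1, HOXC6 and HOXC13 were weaker, with lowest percentiles of 1.54 to 44.8. Loci at these genes had a median of 15 genes within 500 kb, and among all loci with 14 to 19 genes 2.89% were lost and 4.82% gained.

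Lists of early lineage regulators each held more gained than lost loci. Endoderm genes had 8 gained and 2 lost loci of 70, with 6.94 and 7.08 summits per 10000 in shHNRNPU #1 repeats 1 and 2 and 4.82 and 4.89 in shLUC repeats 1 and 2. Gained loci near gene ends included those at FOXA1, FOXA2, EOMES and CXCR4, all with scores under 8. The strongest lost one was 316 bp from an end of EOMES, a T-box factor of mesendoderm, with scores of 13.1 and 11.8 in shLUC repeats 1 and 2 and a shHNRNPU #1 summit 314 bp away, and MIXL1 held the other. Mesoderm genes had 8 gained and 1 lost locus of 75, with gained ones near the ends of MEIS1, MEIS2, HAND2, FOXF1 and TWIST1. Their summits per 10000 were 6.60 and 7.71 against 6.59 and 5.70, where 6.60 and 6.59 nearly met. HAND2 held the lost locus too. Loci at mesoderm genes had a median of 2 genes within 500 kb. Among all loci with 2 such genes, 5.46% were lost and 3.84% gained, so with all 4 libraries this list went against the order by gene density. Without shLUC repeat 2, where a lost locus needed only 1 summit, its excess of gained loci turned from 7 to -2. Trophoblast and amnion genes had 8 gained and 1 lost locus of 77, TFAP2A, TFAP2B, GATA3 and ELF5 among them. The mesoderm list shares genes with this list, and 1 gained locus is counted in both. The excess of gained loci at trophoblast and amnion genes fell from 7 to 1 without shLUC repeat 2, again with looser lost calls. Neuroectoderm genes had 3 gained and no lost loci of 70, of which those at SIX3 and EMX2 were near gene ends. Their gained share of 4.29% was near the 3.99% over all loci.

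The core list of pluripotency genes, with POU5F1, SOX2 and NANOG, had equal numbers of both calls, 3 lost and 3 gained loci of 63. Each call made up 4.76% of them, beside 3.94% lost and 3.99% gained over all loci. At NANOG a lost locus lay 51 bp from a gene end, with scores of 15.5 and 7.77 in shLUC repeats 1 and 2, and the nearest shHNRNPU #1 summit was 1568 bp away. Near SOX2 a lost locus 1673 bp from an end had scores of 5.82 and 4.57. ESRG, a non-coding RNA gene active in human pluripotent cells, had a lost summit with scores of 17.7 and 13.6 and a gained one 282 bp away with scores of 9.86 and 10.7. Gained loci with scores under 5 lay near LIN28A and FOXD3. The primed list had 7 gained and 3 lost loci of 100 and the naive list 1 gained (2.44%) and none lost of 41. Summit shares of both lists were higher in both shHNRNPU #1 libraries, by few summits. The primed list had 58 and 58 summits in shHNRNPU #1 repeats 1 and 2 against 50 and 55 in shLUC repeats 1 and 2. For the naive list these were 22 and 25 against 22 and 21.

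Signalling and chromatin genes had small counts, to be read beside 3.94% lost and 3.99% gained over all loci. WNT pathway genes had 9 gained and 1 lost locus of 134 (6.72% and 0.746%), with gained loci near the ends of SP5, TCF7L2 and FZD8. Without shLUC repeat 1, where a lost locus needed only 1 summit, the excess of gained loci at WNT genes turned from 8 to -1. NODAL and activin genes had 5 gained and 2 lost of 61 (8.20% and 3.28%), including a gained one at the receptor gene ACVR2B. FGF genes had 1 gained and 3 lost of 86 (1.16% and 3.49%), with lost ones at ETV4 and SPRY1. Polycomb genes had 6 gained and 1 lost locus of 72 (8.33% and 1.39%). PHC1 held both calls 546 bp apart and PCGF2 a gained locus near its end. At CHD1, a chromatin remodeller, a lost summit with scores of 27.6 and 19.6 and a gained one with scores of 41.0 and 34.4 lay 290 bp apart. STAG2, ZDBF2 and ZNF667 held such pairs too, at 272, 371 and 524 bp. A gained locus 205 bp from an end of EMD, the inner nuclear membrane protein emerin, had scores of 37.5 and 42.0 with a shLUC summit 266 bp away. SMARCC2 had a lost, and CHD3 and CHD7 a gained, locus near an end.

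The p53 response genes had 2 lost and 1 gained locus of 39 (5.13% and 2.56%), with a lost one near an end of SESN2. Counts were small here too, beside 3.94% lost and 3.99% gained over all loci. Imprinted genes had 2 lost and 4 gained loci of 85 (2.35% and 4.71%). Among them were a gained locus inside SGCE, 24 bp from its end and 216 bp from PEG10, and a lost one at CDKN1C. Genes of HNRNP proteins and splicing had 3 and 3 of 80 (3.75% each). They included a strong lost locus at SRSF5, whose scores were 27.8 and 46.7 and whose nearest shHNRNPU #1 summit was 710 bp away. Near the ends of PTBP1 and ESRP1 they held gained and near RBFOX2 lost loci. Nuclear matrix genes, HNRNPU among them, had 1 lost and none gained of 51, and HNRNPU itself had 2 and 3 summits near its ends in shHNRNPU #1 repeats 1 and 2 and 2 and 2 in shLUC repeats 1 and 2. Lamina genes had 1 lost and 3 gained of 85 (1.18% and 3.53%), and genes of CTCF, cohesin and condensin 1 and 2 of 58 (1.72% and 3.45%). Chromatin remodellers had 6 and 8 of 111 (5.41% and 7.21%), and fibroblast genes none lost and 2 gained of 25, one of these near COL1A2.

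Clusters of like genes stood at both ends of the range. Clustered protocadherins, cell-surface proteins that give neurons their identity, had 8 gained and 1 lost locus of 62, with gained loci at PCDHA1, PCDHA7, PCDHB11, PCDHB12, PCDHB15 and PCDHGA2. Genes of this cluster overlap, so a locus can lie in many of them and was counted once. The lost locus, near PCDHB12 and PCDHB13, had scores of 2.77 and 3.82. Zinc finger genes of chromosome 19 had 4 lost and 7 gained of 377 loci (1.06% and 1.86%), beside 3.94% and 3.99% of all loci. ZNF253, ZNF524, ZNF665 and ZNF813 held calls near their ends beside ZNF667. Replication-dependent histone genes had 2 lost and 1 gained of 70 (2.86% and 1.43%), at H4C2, H1-3 and H4C8. Cytosolic ribosomal protein genes had none lost and 1 gained of 132 (0.758%), at RPS6. These zinc finger, histone and ribosomal lists had the highest shares of loci in all 4 libraries, 63.7%, 60.0% and 70.5%. Olfactory receptor genes, mostly silent outside the nose, had 9 lost and 3 gained loci of 59, near gene ends at OR2B11 and OR4D2 for lost and OR2H2 for gained loci. Loci at these receptors had a median of 25 genes within 500 kb. Among all loci with 20 to 29 genes, 2.60% were lost and 4.92% gained, so this list went against the order by gene density. Lists of biotype gave 3.86% lost and 4.37% gained for 23452 loci at long non-coding RNA genes, and 3.23% and 5.13% for 682 loci at microRNA genes. Lost loci had the larger share at transfer RNA genes, with 5.93% lost and 4.44% gained of 405 loci, and at pseudogenes, with 4.09% and 3.21% of 2617.

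**Figure D5:**
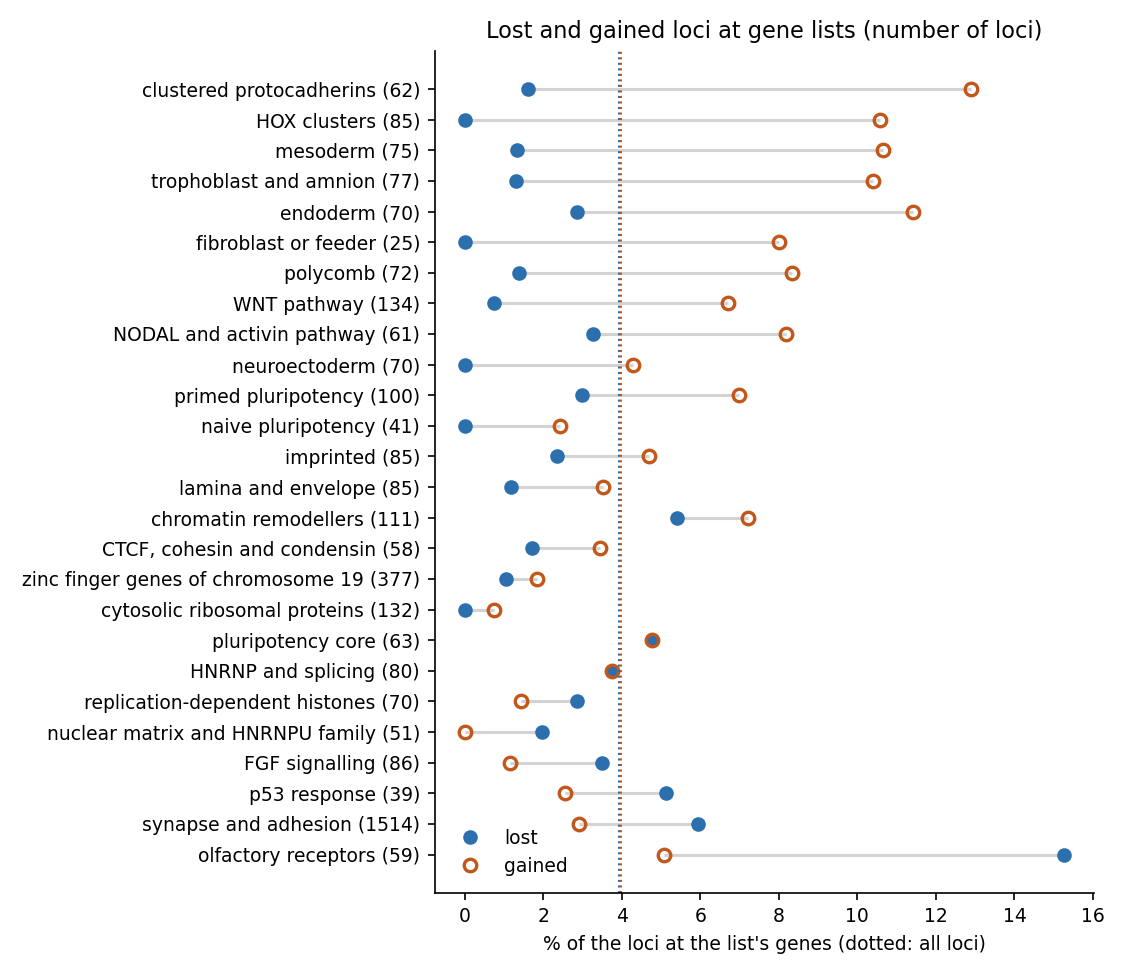
Percentage of the loci at each list's genes that were lost (filled) or gained (open), with the number of loci in brackets, and dotted lines at the shares over all loci, 3.94% and 3.99%. Protocadherins, HOX clusters and the endoderm, mesoderm and trophoblast lists lie to the gained side, the neuroectoderm list has 4.29% gained, and olfactory receptors and synapse and adhesion genes to the lost side. The direction turned without 1 library for the synapse, WNT and mesoderm lists.

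The long genes of synapse and adhesion carried the most calls of any list. They had 90 lost and 44 gained loci of 1514, in 37 and 25 of the 46 genes. Per 10000 summits, 109 and 115 were at these genes in shHNRNPU #1 repeats 1 and 2 and 138 and 135 in shLUC repeats 1 and 2. The groups did not overlap, and the difference of -25.2 summits per 10000 had the smallest p the design allows (two-sided exact permutation test, p = 0.333). Loci at these genes had a median of 1 gene within 500 kb, and among all loci with 1 such gene 5.59% were lost and 3.37% gained, near the list's own 5.94% and 2.91%. Near gene ends were a lost locus at NRXN2 and gained ones at LSAMP and GRIK2. Without shHNRNPU #1 repeat 1, where a gained locus needed only 1 summit, the list held 54 more gained than lost loci. Without that group's repeat 2 the numbers were equal.

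Single genes were ranked by the same counts. By the excess of lost over gained loci the first was ROBO2, the axon guidance receptor, which spans chr3:75906675-77649964 and had 7 lost and no gained loci of 43. Its summits numbered 12 and 19 in shHNRNPU #1 repeats 1 and 2 and 30 and 25 in shLUC repeats 1 and 2. ANKS1B, a protein of the postsynapse, had 6 lost and 1 gained locus of 52, with 21 and 25 summits against 35 and 30. RIMS1 had 4 and 0 of 13, with 2 and 4 summits against 10 and 8, OXR1 had 4 and 0 of 19, and ATXN1, the gene of a spinocerebellar ataxia, 4 and 0 of 21. The genes were chosen for these calls, so their summit numbers only describe them.

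By the reverse excess the first was PLCG2, a phospholipase of immune receptor signalling, which spans chr16:81739041-81962685 and had 6 gained and no lost loci of 17. It had 12 and 10 summits in shHNRNPU #1 repeats 1 and 2 and 3 and 6 in shLUC repeats 1 and 2. CUX1, a homeobox transcription factor, had 6 gained and no lost loci of 34, with 22 and 25 summits against 13 and 11. KAZN, the gene of the junction protein kazrin, had 6 gained and 1 lost locus of 56, NTM, an adhesion molecule of neurons, 5 and 0 of 62, and PTPRN2, a phosphatase-like protein of secretory granules, 8 and 3 of 64. NTM belongs to the list of synapse and adhesion genes, which as a whole lay on the lost side. Of 17226 protein-coding genes with a locus, 1989 had a lost and 2330 a gained locus, and 597 had both. The 175 genes with at least 2 lost and no gained loci had a median length of 315 kb and the 236 genes with the reverse 126 kb, beside 29.9 kb for all genes with a locus, as a gene needs several loci to enter either set. These 2 numbers went up to 787 or 798 without a shLUC library and to 1090 or 911 without a shHNRNPU #1 library, respectively.

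The score at the 29995 loci of all 4 libraries gave no single locus past the threshold. It is not a separate measure from the calls. Score percentiles placed the centres of all loci, and a summit is listed where its peak passed the caller's threshold. In limma on log2 scores, quantile normalized between the 4 libraries, 0 loci (0%) passed an adjusted p of 0.05 (Benjamini-Hochberg), and the smallest adjusted p was 0.235. At an unadjusted p under 0.05, 2042 loci (6.81%) were higher and 2248 (7.49%) lower with shHNRNPU #1. Without normalization 2867 were higher and 1626 lower, and that scaling moved the median difference over all loci from 0.02 to 0.15 on the log2 scale. A p of this fit rests on 2 libraries a group.

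The scores at these shared loci, which come from the same summit lists, leaned the same way as the calls. With no gene within 500 kb the median log2 difference, shHNRNPU #1 minus shLUC, was -0.24 over 1063 loci, and 34.9% of them were higher. With 30 genes or more it was 0.22 over 2849 loci, and 68.1% were higher. Within 2000 bp of a gene end it was 0.14 over 11336 loci and more than 200 kb from any it was -0.24 over 2492. Relative to the median over all loci, the gene-poorest and gene-richest classes stood on the same sides without normalization, at -0.13 and 0.35 beside 0.15. The classes of 3 to 9 genes, with -0.06 to -0.02, turned to 0.07 to 0.11 without normalization. The part of sequencing depth, which is unknown, was not tested.

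None of the loci of smallest p passed the adjusted threshold, and all had an adjusted p of 0.235 in limma. The first among the higher ones was 55969 bp from an end of NRIP1, a nuclear receptor corepressor, with scores of 15.6 and 17.2 in shHNRNPU #1 repeats 1 and 2 and 3.12 and 2.92 in shLUC repeats 1 and 2, a log2 difference of 2.32 ± 0.327 (SE). A locus 574 bp from an end of SHANK2, a scaffold of the postsynapse, had scores of 17.8 and 18.8 against 4.63 and 4.34. The other 6 were near POT1, PPP5C, INF2, GIGYF1, PPP2R5C and OR52W1, with log2 differences of 1.98 to 2.80. The first among the lower ones was 169629 bp from an end of SLC6A15, an amino acid transporter of neurons, with scores of 4.08 and 4.44 against 20.2 and 19.9, a log2 difference of -2.34 ± 0.327 (SE). A locus 316003 bp from an end of TENM2, a teneurin of synapses, had scores of 2.85 and 4.86 against 25.3 and 17.9. The other 6 were near RAB11A, RPS24, DAB1, ZPLD1, XIAP and MARCHF10, with log2 differences of -2.18 to -2.59.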

How the data were processed

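ATAC-seq libraries of H1 cells, 2 with shHNRNPU #1 and 2 with shLUC, were compared, and the 2 libraries of the other hairpin were not used here. The deposited lists give summits of 1 bp, each with a score that is the −log10 of the q-value, as the authors' peak caller wrote it for each library on its own. The submitters' processing notes name cutadapt, Bowtie2, SAMtools, MACS2 and deepTools and the build hg38, with no versions, order or settings. Because calling was done per library, a missing summit means that no peak passed the caller's threshold there, and read depth, which moves that threshold, is unknown. The article given with the series describes another experiment, so no method was taken from it.

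Loci were built with Python 3.11.15 (numpy 2.4.6, pandas 2.3.3, scipy 1.17.1, figures with matplotlib 3.10.9). A summit counted at a locus when it was within 250 bp of the centre. Genes came from the RefSeq table of GRCh38.p14, with 20037 protein-coding genes. Distances were taken to the nearer end of a gene, since that table gives no strand and the promoter table covered 15843 of these genes. Exons, introns and UTRs were not used. All 1259 genes of the 26 lists matched the table. Libraries were compared by a two-sided exact permutation test. Log2 scores at loci of all 4 libraries were quantile normalized and fitted with limma 3.58.1 in R 4.3.3, with Benjamini-Hochberg adjustment over all loci. Intervals are 95% Wilson intervals and cover counting error only. Scripts were tested on simulated data.

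The members and lists were chosen with earlier results of these data known. Genes and loci were named by fixed rules. These were the 8 lost and 8 gained loci of highest score percentile with the other group over 1000 bp away, the 2 highest of each call without that condition, the 5 genes with the largest excess of each call, listed genes with a call within 2000 bp of an end, the 5 loci of each call of highest percentile in promoter windows, and the 8 higher and 8 lower loci of smallest p in limma. Alternatives for gene classes and for genes with several calls were added after seeing the data. A few listed genes are not reported here.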

Additional observations from a re-analysis of the deposited data

How the results depend on the processing

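Of 136 values under alternative settings, 80 were counted as the same, 49 as moved and 7 as turned in direction. For measures of whole libraries, the same meant only an unchanged sign, whatever the size. For counts of loci, genes and lists and for differences between lost and gained loci, a limit of size was set. Settings of limma, with 0 loci called in each, counted as the same too. With scores of at least 5, lost and gained loci numbered 2733 and 2904, their difference in share near a gene end was 12 percentage points, their difference in mean gene density was 3.54 genes, and the difference in summits per library turned to 905. With lists of one size this last difference was 0 by construction. With the other group absent up to 1000 bp, the differences were 6.13 percentage points and 4.30 genes, and 145 genes had at least 2 gained and no lost loci. Counting gene ends within 500 bp gave 2.47 percentage points, and counting genes within 100 kb gave a density difference of 0.767 genes. A chromosome's summit shares did not overlap for 22 of 24 chromosomes, for 16 with scores of at least 5 and for 19 with lists of one size.

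Leaving out each library in turn gave 7407 to 16021 lost and 8120 to 16310 gained loci, since 1 summit was then enough in the group with 1 library. The difference in share near a gene end was -3.34 to 9.57 percentage points, being -3.34 without shHNRNPU #1 repeat 1 and -0.608 without its repeat 2. The density difference was 1.5 to 4.17 genes. Between 8 and 24 lists had more gained than lost loci, with 11 without shLUC repeat 1 and 8 without shLUC repeat 2. Genes with at least 2 lost and no gained loci numbered 128 to 798, and the reverse 237 to 1090. The difference in summits per library was -2727 to 1737, with 1737 without shHNRNPU #1 repeat 1. At summits, the difference in share near a gene end was 0.338 to 2.02 percentage points and in mean density 0.675 to 0.914 genes. The excess of gained over lost loci was -234 to 54 at synapse and adhesion genes, turning to 54 without shHNRNPU #1 repeat 1 and to 0 without its repeat 2. At WNT genes it was -1 to 19, with -1 without shLUC repeat 1, and at mesoderm genes -2 to 13, with -2 without shLUC repeat 2. At trophoblast and amnion genes it was 1 to 16, with 1 without shLUC repeat 2. The causes of these changes were not tested beyond this construction.

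With the replicate block, the differences were -495 summits (exact permutation test, p = 1.00), 1.18 percentage points (p = 0.50, exact) and 0.794 genes (p = 0.50, exact), and limma called 0 loci with a smallest adjusted p of 0.189, with 2032 higher and 2291 lower at an unadjusted p under 0.05. Deviations of same-numbered libraries correlated at -0.0107 over the loci of all 4 libraries. This single value cannot tell whether same-numbered libraries were made together. Smallest adjusted p in limma was 0.106 to 0.531 over the other settings, with 0 loci called in each.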
